A study of Mus musculus with 15 samples.

Results

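Microglia stimulated with lipopolysaccharide (LPS) together with interferon-γ (IFN-γ) were compared with untreated microglia across every gene that could be measured. The samples were taken by their treatment label, 3 arrays labelled LPS/IFNg and 6 labelled as receiving none, which makes 9 of the 15 arrays in the series. Microglia are the resident macrophages of the brain, and these were grown in culture from 1 line of embryonic stem cells of the C57BL/6 mouse strain. Stimulated cells received 500 ng/ml LPS and 20 ng/ml IFN-γ for 24 h, and untreated cells were kept in the same N2-supplemented medium without them. No time is given for the untreated cells. Neither agent was given alone, so what each contributed cannot be told apart. Total RNA was hybridised to Illumina mouse bead arrays, and values are background-corrected, normalized log2 signals per gene. Whether arrays of a group stand for independent cultures is not stated in the labels, and p-values therefore rest on array-to-array spread that could be purely technical. The series was made to compare pro- and anti-inflammatory activation states of these cells.

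The cell label was checked against marker genes. Of 11 macrophage markers on the array, 10 were above background on all 9 arrays, among them the growth factor receptor gene Csf1r, the lineage factor gene Spi1 and Aif1. The other, Itgam, was above background on all 6 untreated arrays and on 1 of 3 stimulated arrays. The summed log2 level of the list was 15.54 to 15.56 on stimulated and 15.67 to 15.75 on untreated arrays. For markers of microglia in the brain it was 11.62 to 11.90 and 12.30 to 12.51. Of 9 markers of microglia in the brain, Sall1 and Trem2 were above background on all 9 arrays, and P2ry12, Tmem119, Cx3cr1, Fcrls, Olfml3, Siglech and Gpr34 on 0 arrays. The cells therefore carried macrophage genes and lacked most of the markers that set brain microglia apart. Fibroblast, neural progenitor, neutrophil, B cell, dendritic cell and mast cell markers were below background on all 9 arrays, 36 markers in all. Of the other marker lists, 1 gene each was above background on all 9 arrays in the embryonic stem cell (Klf4, 1 of 10), astrocyte (Slc1a2, 1 of 7), oligodendrocyte (Cnp, 1 of 7) and endothelial lists (Vwf, 1 of 6). On part of the arrays this held for Pou5f1 of the stem cell list, Syp of 8 neuron markers, Aldh1l1 of the astrocyte list, and Cd4 and Klrb1c of 8 T or NK cell markers, the last 2 on 1 untreated array each. The summed log2 level of the endothelial list was 8.04 to 8.33 on stimulated and 8.50 to 8.63 on untreated arrays, and that of the stem cell list 8.37 to 8.39 and 8.42 to 8.52. The part of such cells in the results was not tested. Values come from whole cultures, in which fewer cells of a type and less RNA per cell cannot be told apart.

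LPS, a glycolipid of the outer membrane of Gram-negative bacteria, is passed by Cd14 to a receptor made of Tlr4 and Ly96. That receptor signals through the adaptors Myd88 and Tirap to NF-κB, and through Ticam1 and Ticam2 to factors that induce type I interferons. IFN-γ, made by T cells and natural killer cells, acts through its own receptor and the kinases Jak1 and Jak2. It leads to binding of STAT dimers to a DNA element called GAS and, with the factor Irf9, to a second element called ISRE. In macrophages the pair is the standard stimulus of the classical, pro-inflammatory state.

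Of 8561 genes tested, 4770 differed between the groups (55.7%, adjusted p under 0.05), 1837 higher (21.5%) and 2933 lower (34.3%) in stimulated cells. With cyclic loess scaling in place of quantile normalization, 2258 of 4524 calls were higher, so the balance of small rises and falls depends on the scaling. Changes of at least 2-fold were made by 698 genes (8.15%), of which 438 rose (5.12%) and 260 fell (3.04%). Large changes went mostly up. At least 4-fold rises were seen in 161 genes (1.88%) and at least 4-fold falls in 21 (0.245%), and 44 genes (0.514%) rose at least 16-fold. Groups did not overlap, with all 3 stimulated arrays on 1 side of all 6 untreated arrays, in 4019 genes (46.9%).

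The third stimulated array stood apart from the other 2. Its correlation with each of them was 0.983, against 0.995 between replicates 1 and 2 and 0.990 to 0.996 among untreated arrays, all across genes, which are not independent replicates. On it 99 genes were at least 2-fold above and 46 at least 2-fold below the mean of replicates 1 and 2 (1.69% of genes in all). On the other 8 arrays of the comparison 1 to 33 genes were as far from their group. The number on replicate 3 was 139 with cyclic loess scaling and 55 without background correction, chosen as alternatives for this count after seeing the data. Without it 4125 genes were called (48.2%), 1584 higher (18.5%) and 2541 lower (29.7%), and 610 (7.13%) changed at least 2-fold, 378 up (4.42%) and 232 down (2.71%). Of these calls, 3894 were also made with it, all in the same direction, while 876 were made only with it and 231 only without it. Of the 698 genes called at 2-fold or more, 694 were called without replicate 3 and 573 were again at least 2-fold. The 4 that lost their call were Csnk2a1, Gla, Il1rn and Krit1. Below, fold changes are for all 3 stimulated arrays, and the value without replicate 3 is given for the genes on which results turn. The median log2 fold change of all genes was -0.08 with and without replicate 3.

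In what follows, levels are normalized log2 signals and changes are log2 fold changes, stimulated minus untreated, with their standard error (SE) after ±. Genes said to have risen or fallen passed limma's test at the adjusted p above. Counts of list members called are to be set against the 21.5% higher and 34.3% lower of all genes. A gene was tested only if above background on 3 or more of the 15 arrays. A gene silent in untreated cells could pass only through treated arrays, so counts among tested members are in part set by that filter. Where stimulated arrays are set against untreated ones, the values are those of replicates 1, 2 and 3 and the lowest, highest and median of the 6 untreated arrays, and the groups did not overlap unless this is stated or the values show it. A gene with no probe above background in 1 group has only a bound there. Its change is given as "at least" so many fold, from the mean of the brighter group to the lowest signal above background on each array of the dimmer group, or the gene's own signal where that was higher. Such bounds were open to the limit of detection and understate the change. The bounded genes named below had adjusted p of at most 0.0051. Some genes were above background on part of a group. In untreated cells this was 2 of 6 arrays for Gbp3, Cish, Id3, Maff and Cenpf, 3 for Slfn2, 4 for Bcl2a1b and 5 for Isg15, Il1rn and Cd83. In stimulated cells it was 2 of 3 arrays for Ankrd37, Bcl2l1, Chst3, Irf4, Nfam1, Pes1 and Srsf3, and 1 for Ctsl and Thbd. For Myd88, Irak1, Cd180, Ifngr2, Stat5a, Tnip2, Trim27, Bbc3, Bcl2l1, Slc7a2, Cat, Acsl5, Tgfbr1, Mybl2 and Ccnd3, some probes of the gene were called, all in the direction given, and some were not.

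**Figure D1:**
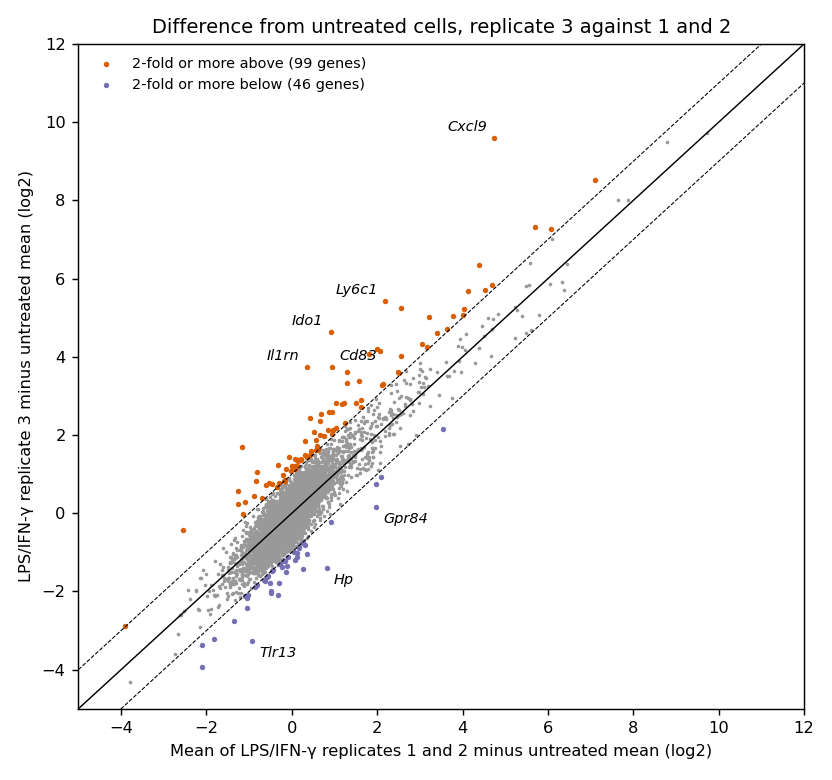
Log2 difference from the untreated mean on LPS/IFN-γ replicate 3 (vertical axis) against the mean difference on replicates 1 and 2 (horizontal axis) for all 8561 genes, 1 point a gene, with the diagonal and lines 1 log2 unit (2-fold) above and below it. Most genes follow the diagonal over the whole range, and the 99 genes above the upper line include Cxcl9, Ido1, Il1rn, Ly6c1 and Cd83.

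Promoter sequences of 4 genes that rose strongly are shown as examples of promoters that hold an ISRE or a GAS element. Promoters were taken from RefSeq on the mouse build GRCm38.p6, 250 bases before to 50 after a gene's start, 1 per gene, for 7069 of the 8561 genes. The ISRE was searched as GAAA, any 2 bases and GAAA again, and the GAS element as TTCNNNGAA, each on both strands. Both may overlap in a promoter, and GAS reads the same on either strand. The 250 bases before the start of 4 genes follow, in lower case with ISRE and GAS matches in capitals: a guanylate-binding protein, a chemokine, a ubiquitin-like modifier and a transcription factor.
Gbp2 (chr3:142620413-142620662, + strand): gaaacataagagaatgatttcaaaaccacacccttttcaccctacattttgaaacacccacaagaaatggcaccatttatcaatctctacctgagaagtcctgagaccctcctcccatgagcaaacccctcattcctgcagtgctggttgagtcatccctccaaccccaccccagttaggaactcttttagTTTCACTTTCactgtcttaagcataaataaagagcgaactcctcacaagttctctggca
Cxcl10 (chr5:92348890-92349139, - strand): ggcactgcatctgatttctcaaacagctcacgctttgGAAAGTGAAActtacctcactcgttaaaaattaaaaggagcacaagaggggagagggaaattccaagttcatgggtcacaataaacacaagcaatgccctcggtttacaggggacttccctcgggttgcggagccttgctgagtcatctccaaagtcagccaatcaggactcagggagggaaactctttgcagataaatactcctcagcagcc
Isg15 (chr4:156200819-156201068, - strand): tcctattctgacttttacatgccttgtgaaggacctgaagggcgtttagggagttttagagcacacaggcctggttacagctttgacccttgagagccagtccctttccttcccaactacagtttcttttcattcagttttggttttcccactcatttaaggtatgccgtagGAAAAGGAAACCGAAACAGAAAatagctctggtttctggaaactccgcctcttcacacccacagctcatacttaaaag
Irf1 (chr11:53769764-53770013, + strand): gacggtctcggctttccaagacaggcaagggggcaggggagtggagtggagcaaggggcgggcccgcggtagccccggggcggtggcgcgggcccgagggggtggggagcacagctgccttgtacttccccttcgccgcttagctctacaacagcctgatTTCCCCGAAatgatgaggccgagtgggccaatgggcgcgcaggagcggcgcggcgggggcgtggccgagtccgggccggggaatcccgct
Gbp2 and Cxcl10 each held 1 ISRE, Isg15 held 3 overlapping ones and Irf1 held a GAS element. In Gbp2 the element began -59 bases from the start site and in Cxcl10 -213.

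Of the 36 promoters of genes called at least 16-fold higher, 18 held an ISRE or a GAS match (50.0%), against 9.41% of tested genes. The rest held neither, among them those of Cxcl9, Cxcl2, Acod1, Lcn2, Clec4e, Tnf, Irf7, Ifi47, Oasl1 and Oasl2. The following windows are examples of matches, in capitals with 5 bases on either side, that began between -34 and -122 bases from the start. Other matches lay farther off, as in Gbp5 (GAS at -245, ISRE at -165), Ifit3 (a further ISRE at -156) and Ifit2 (GAS at -241).
Gbp3 ISRE, chr3:142559994-142560013, + strand: cacagTTTCAGTTTCtattt
Gbp7 ISRE, chr3:142530278-142530297, + strand: tgcagTTTCAGTTTCagttc
Calhm6 ISRE, chr10:34128022-34128041, - strand: aaaaaGAAAGTGAAAcccgg
Igtp GAS, chr11:58199506-58199524, + strand: gccatTTCTAGGAActgaa
Igtp ISRE, chr11:58199517-58199536, + strand: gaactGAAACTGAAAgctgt
Irgm2 GAS, chr11:58214897-58214915, + strand: gccatTTCCAGGAActgaa
Irgm2 ISRE, chr11:58214908-58214927, + strand: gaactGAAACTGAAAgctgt
Tgtp1 GAS, chr11:48992321-48992339, - strand: gccatTTCCAGGAAtcgaa
Tgtp1 ISRE, chr11:48992309-48992328, - strand: gaatcGAAACTGAAAcctac
Ifit3 ISRE, chr19:34583402-34583421, + strand: gtctgTTTCAGTTTCtactt
Fas GAS, chr19:34290561-34290579, + strand: gcgatTTCTGGGAAgacct
Igtp, Irgm2 and Tgtp1, which encode related GTPases, had the GAS and ISRE matches next to each other. Such related genes share sequence by descent, so their matches are not separate instances.

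The ISRE match was found in 14 of 36 promoters of genes called at least 16-fold higher (38.9%), in 33 of 123 at least 4-fold higher (26.8%) and in 52 of 354 at least 2-fold higher (14.7%). The 14 include the related GTPase genes Gbp2, Gbp3, Gbp5, Gbp7, Igtp, Irgm2 and Tgtp1. These shares count each related gene, though their matches are not separate instances. The share of the ISRE match was 2.59% of genes with smaller rises, 2.75% of genes not called, 2.25% of genes with smaller falls and 1.46% of genes at least 2-fold lower. Across all 7069 promoters of tested genes it was 3.13%, and across the 27025 genes with a listed promoter 3.49%. GAS matches followed the same order more weakly, at 27.8%, 14.6% and 11.3% for rises of at least 16-fold, 4-fold and 2-fold, against 6.72% of tested genes and 2.43% of genes at least 2-fold lower. Among the 21 genes at least 4-fold lower, 2 of 19 promoters held an ISRE match, too few to read a share from. A loose NF-κB pattern, GGG, any 5 bases and CC, was found in 67.8% of promoters of tested genes and in 62.6% of genes at least 4-fold higher. These are descriptions of sequence within 300 bases, and a match is not shown to be a site in use.

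**Figure D2:**
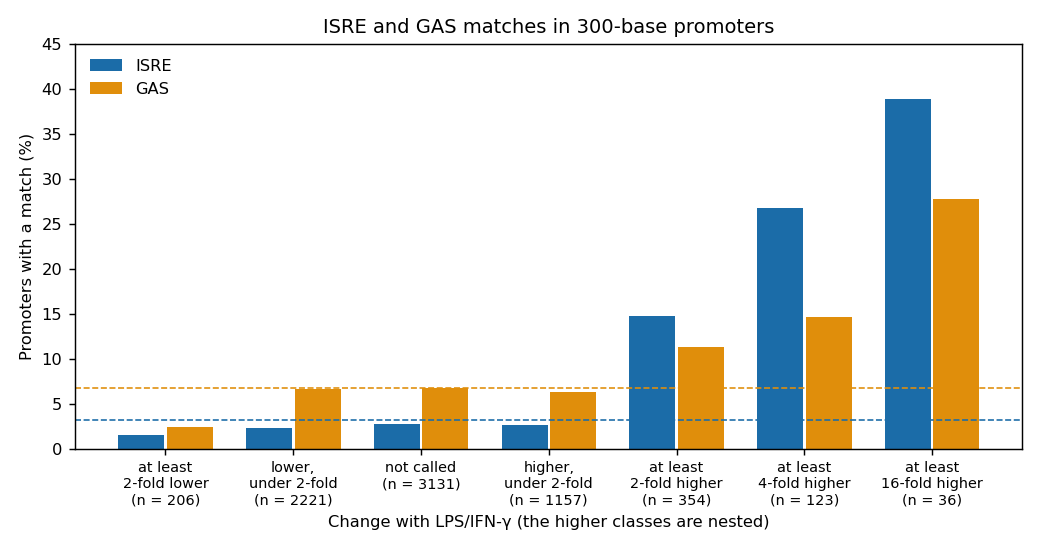
Percent of 300-base promoters that hold an ISRE (GAAA, any 2 bases, GAAA) or a GAS (TTCNNNGAA) match on either strand, by the size and direction of the change of the gene with LPS/IFN-γ; dashed lines mark the share over all 7069 tested genes with a promoter. The ISRE share rises from 1.46% of genes at least 2-fold lower to 38.9% of genes at least 16-fold higher, with related GTPase genes each counted.

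The 4 genes given as markers of the stimulated state were higher on each stimulated array than on all untreated arrays, as were 18% of all genes. They were chosen with earlier results of these data known, so their rise is described and is no separate support. Gbp2, an interferon-induced GTPase, read 14.97, 14.78 and 14.87 on the 3 stimulated arrays and 4.91 to 5.53, median 5.13 on untreated arrays, where it was not above background on any, a rise of at least 579-fold. All 3 of its probes were called higher. Cxcl10, a chemokine that draws T cells, read 12.07, 12.29 and 13.60 against 4.82 to 5.31, median 5.08 and rose at least 124-fold (89.3-fold without replicate 3). Nos2, the inducible nitric oxide synthase, read 8.60, 8.97 and 10.07 against 4.76 to 5.73, median 4.93 and rose at least 11.4-fold, or 8.5-fold without replicate 3. Tnf, an early macrophage cytokine, was above background in untreated cells at 8.44 to 8.74, median 8.52 and read 12.36, 12.62 and 13.01, a log2 fold change of 4.11 ± 0.11 (adjusted p = 2e-13). Replicate 3 was the highest of the 3 arrays for Cxcl10, Nos2 and Tnf, and lay between the others for Gbp2.

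**Figure D3:**
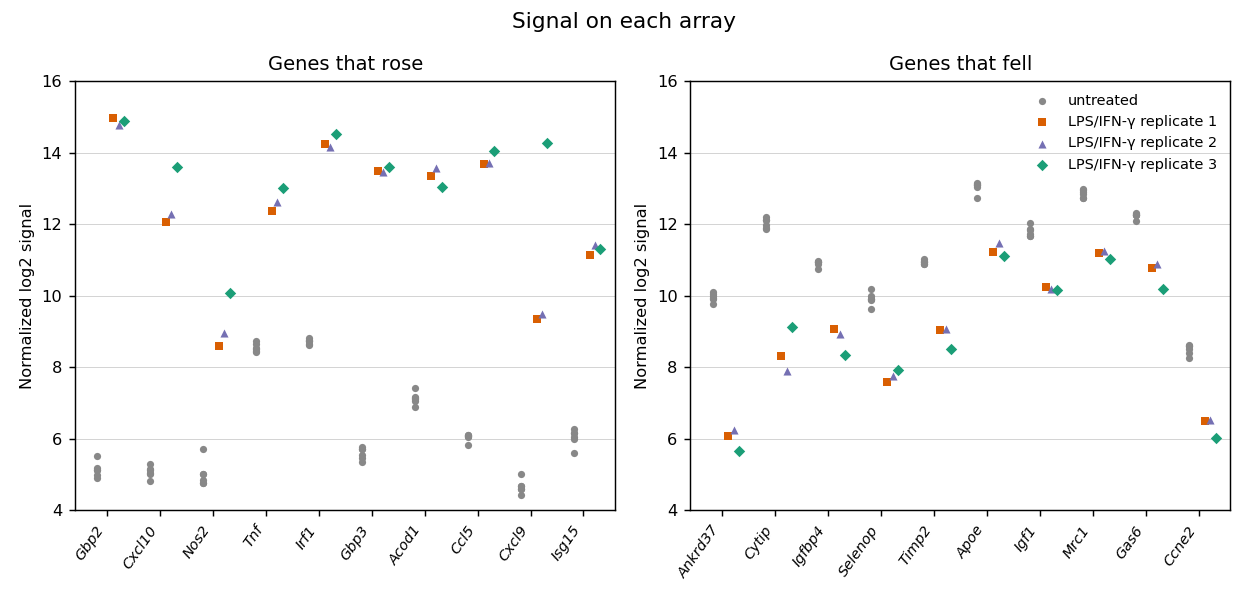
Normalized log2 signal of 20 genes on each of the 9 arrays: untreated arrays as grey circles and LPS/IFN-γ replicates 1, 2 and 3 as separate coloured symbols; levels are not comparable between genes. For 10 genes that rose and 10 that fell, the stimulated arrays lie on 1 side of all untreated arrays, as in 46.9% of all genes. The highest and lowest calls were named only if they did not overlap, so this separation was in part set by the choice of genes. Replicate 3 lies far from the other 2 for Cxcl9.

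The genes of the LPS receptor itself did not pass the test, while some regulators downstream of it rose. Tlr4 read 10.11, 10.05 and 9.04 on stimulated arrays against 9.71 to 9.92, median 9.80, with a fold change of -0.08 ± 0.17 (adjusted p = 0.71). Replicate 3 was thus below all untreated arrays and replicates 1 and 2 above them, and without replicate 3 the fold change was 0.27 (adjusted p = 0.013). Neither Cd14 (-0.10 ± 0.07) nor Ly96 (-0.01 ± 0.09) passed the test. Of 17 receptor and adaptor genes tested, 4 rose (23.5%) and 5 fell (29.4%), near the 21.5% and 34.3% of all genes. The 3 large changes were in Ticam2, the adaptor that links Tlr4 to the interferon branch (9.07, 8.89 and 9.13 against 6.16 to 6.41, median 6.36, log2 fold change 2.70 ± 0.10), in the kinase gene Irak2 (1.82 ± 0.09) and in Irak3, which encodes an inhibitory relative (1.61 ± 0.13). The adaptor genes Myd88 (-0.32 ± 0.06) and Tirap (-0.53 ± 0.10), the kinase gene Irak1 (-0.44 ± 0.07) and Cd180, a receptor-like modulator of Tlr4 (-0.85 ± 0.13), fell.

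Among other sensors of microbes, 9 of 16 rose and 2 fell. Nod1, a sensor of bacterial cell wall, rose by 2.69 ± 0.16 and Dhx58, a sensor of viral RNA, by 2.77 ± 0.11. Tlr2, for bacterial lipoproteins, read 12.52, 12.53 and 12.07 against 10.40 to 10.81, median 10.70, a rise of 1.75 ± 0.12. The bacterial sensor Nod2 rose at least 1.86-fold and the DNA sensor Ifi204 at least 1.95-fold. Tlr13, which detects bacterial ribosomal RNA, fell. Its untreated arrays read 10.55 to 10.86, median 10.66, all 3 stimulated arrays were lower, and replicates 2 and 3 read 9.55 and 7.44. The log2 fold change of -1.70 ± 0.37 was -0.92 without replicate 3. Tlr5, for flagellin, also fell (adjusted p = 5.6e-05), and was below background on all stimulated arrays. Its untreated arrays read 5.16 to 5.85, where the lowest signal above background on those arrays was 5.56 to 5.81. It was thus near background in both groups, which leaves no bound on the fold.

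Most genes that carry the interferon signal rose. Of 19 receptor and JAK-STAT genes, 12 rose and 3 fell, 7 of them rising at least 2-fold. Of the 2 chains of the IFN-γ receptor, Ifngr1 was lower (-0.55 ± 0.10) and Ifngr2 higher (0.47 ± 0.11, 0.37 without replicate 3). Stat2 read 9.78, 9.76 and 9.26 against 6.38 to 6.67, median 6.51, a log2 fold change of 3.07 ± 0.10. The kinase genes Jak2 (1.93 ± 0.14) and Tyk2 (1.66 ± 0.08) and the transcription factor gene Stat3 (1.12 ± 0.18) also rose, while Stat5a fell (-0.64 ± 0.11). Among inhibitors of the pathway, the ISG15 protease gene Usp18 rose by 2.42 ± 0.08. Socs3 read 10.05, 10.12 and 11.91 against 8.37 to 8.73, median 8.51, and its fold change of 2.17 ± 0.29 was 1.56 without replicate 3. Cish, of the same family, read 7.61, 7.58 and 9.67 against 5.20 to 5.84, median 5.49, with 2.06 in place of 2.76 without replicate 3. Both were about equal on replicates 1 and 2 and higher on replicate 3.

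Interferon regulatory factors and their partners went both ways. Irf1, a direct target of STAT dimers whose promoter is shown above, read 14.24, 14.15 and 14.52 against 8.61 to 8.82, median 8.74, a log2 fold change of 5.58 ± 0.09 (adjusted p = 4.3e-16). Its 5 probes rose by 2.81 to 5.79. Irf7, which amplifies type I interferon, rose at least 11.2-fold, Batf2, a partner of Irf1, at least 34.6-fold, and Irf9 by 2.77 ± 0.10. Irf8, a macrophage lineage factor, read 10.01, 10.54 and 12.06 against 9.13 to 9.36, median 9.25, and its rise of 1.62 was 1.03 without replicate 3. Irf2bp1, a binding protein of Irf2 (-0.67 ± 0.12), and the factor gene Irf4 (-0.47 ± 0.10) fell. In all 7 of 12 rose and 3 fell.

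Subunits and inhibitors of NF-κB rose together. Of 20 genes 16 rose, 11 of them at least 2-fold, and 2 fell. The subunit genes Relb (2.00 ± 0.09), Nfkb2 (1.62 ± 0.10) and Rela (1.00 ± 0.10) rose, and so did the inhibitors. Nfkbia, which holds NF-κB in the cytoplasm, read 11.92, 12.06 and 12.19 against 8.26 to 8.79, median 8.59, a log2 fold change of 3.47 ± 0.11. Nfkbie rose by 3.39 ± 0.12, Nfkbiz, which acts in the nucleus, by 3.04 ± 0.23 and Tnfaip3, a deubiquitinase that ends the signal, by 2.89 ± 0.13. The adaptor gene Traf1 rose at least 9.24-fold. Otulin (-0.70 ± 0.09) and Tnip2 (-0.42 ± 0.07), also negative regulators, fell. Map3k14, the kinase of the non-canonical branch, read 6.26, 6.39 and 7.65 against 6.75 to 7.04, below the untreated range on replicates 1 and 2 and above it on replicate 3.

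Immediate-early and AP-1 genes went both ways, 6 higher and 6 lower of 15 (40% each, against 21.5% and 34.3% of all genes). Fos, the classical immediate-early gene, read 6.33, 5.98 and 8.27 against 8.51 to 8.89, median 8.67, a log2 fold change of -1.84 ± 0.33 (-2.54 without replicate 3). Jun fell (-0.70 ± 0.12), while Junb (1.01 ± 0.14), Maff (1.40 ± 0.16) and the Krüppel-like factor genes Klf2 (1.72 ± 0.16) and Klf6 (1.17 ± 0.18) rose. Egr1 and Egr3 fell to below background on all 3 stimulated arrays, from 5.60 to 6.03 and 5.61 to 6.04, and the bound on each fall was 1.04-fold. Of the mitogen-activated kinase phosphatases and mRNA decay factors, Zc3h12a, a ribonuclease that degrades cytokine mRNA, rose (1.64 ± 0.17), whereas the phosphatase genes Dusp5 (-0.80 ± 0.16) and Dusp3 (-0.72 ± 0.07) fell. That list had 7 higher (43.8%) and 6 lower (37.5%) of 16.

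Chemokine genes rose in 11 of 12 cases tested across 3 lists. All 4 T cell chemokine genes tested and all 6 monocyte-directed CC chemokine genes tested rose. These 2 lists had 8 and 9 genes on the array, and the rest were too dim for the test. Ccl5 read 13.68, 13.70 and 14.05 against 5.82 to 6.11, median 6.08, a log2 fold change of 7.77 ± 0.10. Ccl2, the main monocyte chemokine, read 9.96, 10.17 and 11.26 against 5.77 to 6.34, median 6.02 (4.44 ± 0.21). Ccl4 (3.24 ± 0.12) and Ccl3 (2.32 ± 0.09) rose, and Ccl12 and Ccl7 rose at least 6.8-fold and 4.59-fold from below background (4.48-fold for Ccl12 without replicate 3). Cxcl16, a membrane-bound chemokine, rose at least 2.18-fold. Pf4, a platelet-type chemokine, fell (-0.31 ± 0.12, adjusted p = 0.043), a call lost with cyclic loess scaling (adjusted p = 0.19) and when any of 6 of the 9 arrays was left out, while Cxcl2, of the same neutrophil list, rose at least 9.26-fold. Cxcl1 and Cxcl11 were above background on 0 of 9 arrays.

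Of 27 interleukin and TNF family genes on the array 15 were tested. Of these 11 rose and 0 fell, and without replicate 3 10 rose and 1, Tnfsf14, fell (-0.53, against -0.10 with it). Tnfsf13b, a B cell survival factor, read 9.95, 9.99 and 10.35 against 5.91 to 6.42, median 5.99, a rise of 4.02 ± 0.13. Il15, which sustains natural killer cells, rose by 2.38 ± 0.10 together with the chain that presents it, Il15ra (2.55 ± 0.17). Il1a rose at least 2.42-fold and Il27 at least 1.91-fold. Il18 rose by 1.26 ± 0.10. The growth factor gene Csf1 read 10.68, 10.53 and 9.44 against 8.43 to 8.73, median 8.48, and its rise of 1.71 was 2.10 without replicate 3, whose array was the lowest of the 3. Il1rn, the antagonist of interleukin-1, read 6.27, 6.18 and 9.61 against 5.65 to 6.13, median 5.84, a log2 fold change of 1.49 ± 0.53 (adjusted p = 0.027) that was 0.36 and not called without replicate 3 (adjusted p = 0.13). Il6, Il10, Il12a and Ifnb1 were above background on 0 of 9 arrays, of which the stimulated ones were taken at 24 h.

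Receptors for cytokines and chemoattractants changed in both directions. Fas, a death receptor, rose at least 18.8-fold, with all 3 of its probes called higher. Cd40, a costimulatory receptor, read 11.46, 11.17 and 12.40 against 7.91 to 8.34, median 8.15 (3.53 ± 0.19). Tnfrsf9 (2.28 ± 0.15) and Tnfrsf1b, the second receptor for Tnf (1.52 ± 0.13), rose, whereas Il6ra (-1.35 ± 0.29), Il10ra (-0.78 ± 0.12) and Il6st (-0.44 ± 0.13), which serve interleukin-6 and interleukin-10, fell. Of 18 cytokine receptor genes 6 rose and 6 fell (33.3% each, against 21.5% and 34.3% of all genes). Among 10 chemoattractant and nucleotide receptors, 3 rose (30%) and 4 fell (40%), or 5 and 4 without replicate 3. Ccrl2, a chemerin-binding receptor, rose at least 18.3-fold. Cxcr4 (-1.55 ± 0.10), Lpar6 (-1.90 ± 0.11) and the nucleotide receptor gene P2ry6 (-0.86 ± 0.08) fell. Gpr84, a receptor for medium-chain fatty acids, read 10.04, 10.09 and 8.27 against 8.04 to 8.23, median 8.07, and its rise of 1.37 was 1.97 without replicate 3.

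Interferon-induced GTPases were among the genes that rose most. Guanylate-binding proteins and immunity-related GTPases attack membranes around intracellular microbes. Of 19 on the array 12 were tested, and 11 of these rose, all of them at least 2-fold. The median log2 fold change of the 12 was 5.09, 4.71 with genes below background in untreated cells at their bound, and 3.35 without background correction. Gbp3 read 13.49, 13.46 and 13.61 against 5.35 to 5.78, median 5.63 (7.92 ± 0.11), Igtp 12.55, 12.58 and 12.85 against 6.77 to 7.22, median 6.98 (5.65 ± 0.11) and Irgm2 rose by 5.27 ± 0.12. Irgm1 was not called on its brightest probe (0.18 ± 0.07, adjusted p = 0.05), while its other 2 probes rose, by up to 4.25. Members of these families are similar in sequence, and a probe may read more than 1 of them. Replicate 3 lay close to the others for Gbp3 and Igtp. It was higher for Gbp5, which read 10.62, 10.59 and 11.81 against 4.44 to 4.62 and rose at least 39.6-fold (30-fold without replicate 3), with both of its probes called higher.

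Of 42 antiviral effectors on the array 29 were tested, and 27 of these rose, 26 of them at least 2-fold. The median log2 fold change of the 29 was 2.51 (2.48 without replicate 3) against -0.08 over all genes. That median was 2.13 with genes below background at their bound and 1.42 without background correction. Oasl2, of the oligoadenylate synthetase family, read 12.61, 12.61 and 12.54 against 6.01 to 6.31, median 6.18 (6.41 ± 0.10). Ifit2 rose by 4.56 ± 0.11, Ifit3 by 5.19 ± 0.20 and the membrane proteins Ifitm3 and Bst2 by 2.39 ± 0.07 and 2.16 ± 0.21. Apobec3, a cytidine deaminase, rose by 2.65 ± 0.11 and Slfn2 by 2.93 ± 0.22. Rsad2, which makes a chain-terminating nucleotide, read 8.28, 7.91 and 6.70 against 4.45 to 4.74 and rose at least 3.82-fold, with replicate 3 the lowest. Eif2ak2, which halts translation on double-stranded RNA, rose less (1.32 ± 0.11).

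Genes of ISG15, ubiquitin-like modifiers and their enzymes rose in all 14 genes tested. Isg15 itself read 11.13, 11.41 and 11.31 against 5.60 to 6.27, median 6.11, a log2 fold change of 5.24 ± 0.15. The activating enzyme Uba7 rose by 2.59 ± 0.08 and the conjugating enzyme Ube2l6 by 2.82 ± 0.11. Rnf213, a large ubiquitin ligase, rose at least 5.46-fold and the linear-chain ligase Rnf31 rose by 1.48 ± 0.11. The modifier Ubd read 6.35, 6.43 and 8.42 against 4.95 to 5.37 and rose at least 2.58-fold, or 1.61-fold without replicate 3. PARP family genes rose in 10 of 12 cases, led by Parp14 (12.53, 12.44 and 12.30 against 6.32 to 6.64, median 6.36, 5.98 ± 0.09), while Parp1, the DNA repair member, fell (-0.63 ± 0.06). TRIM ligases were split, 9 higher (42.9%) and 5 lower (23.8%) of 21 with a median of 0.00. Among them Trim21, an intracellular antibody receptor (2.19 ± 0.10), and Pml (1.93 ± 0.14) rose at least 2-fold and Trim27 fell (-0.51 ± 0.12).

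Cell death genes rose in part. Casp4, the caspase that binds LPS inside the cell, read 11.85, 11.75 and 12.34 against 8.94 to 9.16, median 9.02, a log2 fold change of 2.95 ± 0.13. Genes for proteins that rupture the membrane rose with it: the pore former Gsdmd by 1.41 ± 0.10, Mlkl by 1.75 ± 0.09 and Ninj1 by 1.54 ± 0.16. Of the 17 genes of this list 9 rose and 1 fell. In the BCL2 family and its partners 9 of 15 rose and 3 fell. The survival gene Bcl2a1b rose by 1.41 ± 0.21 and Bcl2 by 1.04 ± 0.14, the death gene Bbc3 by 1.58 ± 0.15, and Pmaip1 fell (-0.76 ± 0.12). Bcl2l1 (-0.75 ± 0.21) also fell, but was not called without replicate 3 (adjusted p = 0.073).

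Most genes of antigen presentation by MHC class I rose. Of 15 genes 13 rose, 11 at least 2-fold, with a median of 2.06 and 1.97 without replicate 3. The peptide transporter gene Tap1 read 11.38, 11.37 and 11.48 against 7.12 to 7.57, median 7.29 (4.11 ± 0.12), Tapbpl, which edits the peptide cargo, rose by 3.74 ± 0.12, the class I gene H2-K1 by 2.06 ± 0.13 and the transactivator gene Nlrc5 by 1.63 ± 0.08. B2m, the light chain, rose by 0.53 ± 0.07. Class I genes are close copies, so the values of single H2 members are uncertain.

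Inducible proteasome subunits rose at least 2-fold, and constitutive ones did not. The inducible catalytic subunits Psmb9 (12.85, 12.93 and 12.76 against 9.14 to 9.35, median 9.26, 3.59 ± 0.08), Psmb10 (2.28 ± 0.08) and Psmb8 (1.43 ± 0.16) and the regulator Psme1 (1.64 ± 0.06) rose, 4 of 5 members tested. The other regulator chain, Psme2, did not pass the test (0.11 ± 0.14). Of 32 constitutive proteasome genes 8 rose and 2 fell, 0 of them by 2-fold, with a median of 0.04. The highest of those was Psma5 (0.44 ± 0.06).

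The class II pathway rose in 6 of 10 genes tested and fell in 2. Cd74, the invariant chain, read 11.86, 11.99 and 12.63 against 8.83 to 9.08, median 8.91 (3.23 ± 0.13). Ctss, the protease that trims the invariant chain, rose by 1.41 ± 0.16, while Ctsl, another lysosomal protease, fell (-0.61 ± 0.14), with stimulated and untreated arrays overlapping. The peptide loader H2-DMa read 6.45, 5.95 and 7.83 against 4.96 to 5.45, a rise of at least 2.07-fold (1.42-fold without replicate 3). The classical class II genes were too dim for the test. H2-Aa read 4.58, 4.87 and 6.53 against 4.43 to 4.62 and H2-Eb1 4.55, 4.65 and 5.98 against 4.42 to 4.90, and both were above background on replicate 3 alone. Replicate 1 lay within the untreated range for H2-Aa, and replicates 1 and 2 for H2-Eb1. Ciita, the transactivator of the class II genes, read 5.31, 5.66 and 7.12 against 4.38 to 4.59 in untreated cells, above background on replicates 2 and 3.

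Costimulatory and checkpoint genes changed in 10 cases upwards and 5 downwards of 17. Cd274, the ligand of the inhibitory receptor PD-1, read 11.63, 11.54 and 12.64 against 7.71 to 8.12, median 7.95 (3.99 ± 0.18), and the adhesion gene Icam1 13.12, 13.43 and 14.11 against 10.17 to 10.38, median 10.30 (3.28 ± 0.15). Slamf7, an activating receptor, read 7.20, 7.18 and 9.89 against 4.53 to 4.70 and rose at least 5.24-fold, or 2.81-fold without replicate 3. Cd83, a marker of activated antigen-presenting cells, read 6.93, 7.10 and 9.81 against 5.53 to 6.33, and its rise of 1.88 was 0.95 without replicate 3. Lgals9, which binds Havcr2, rose (1.86 ± 0.08) and Havcr2 itself fell (-0.78 ± 0.09). Vsir, an inhibitory surface protein, read 7.10, 6.98 and 7.23 against 8.92 to 9.21, median 9.07 (-1.96 ± 0.10) and Cd72 fell with it (-1.57 ± 0.08).

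Acute phase and antimicrobial genes rose in 10 of 14 cases. The iron-binding protein gene Lcn2 read 10.85, 10.99 and 10.25 against 4.40 to 4.72 and rose at least 32-fold from below background, and Saa3, an acute phase protein, read 14.66, 14.54 and 14.44 against 9.93 to 10.48, median 10.24 (4.34 ± 0.13). The complement gene C1qb read 9.12, 8.86 and 10.95 against 4.49 to 4.74 and C1qc 6.63, 6.39 and 8.78 against 4.67 to 4.74. They rose at least 15.4-fold and 2.97-fold, or 9.82-fold and 1.76-fold without replicate 3, which was highest for both, and factor B (Cfb) rose at least 4.06-fold. The scavenger receptor gene Marco rose at least 5.87-fold. Hp, haptoglobin, read 10.71, 10.66 and 8.48 against 9.75 to 9.98, median 9.88. Its fold change of 0.08 ± 0.34 was not called, and was 0.82 without replicate 3 (adjusted p = 2.2e-05), which was the array below the untreated range. The lysozyme gene Lyz2 fell (-0.50 ± 0.14), and was not called without replicate 3 (adjusted p = 0.061).

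Of 14 genes of the nitric oxide, arginine and tetrahydrobiopterin list, 5 rose (35.7%, against 21.5% of all genes) and 3 fell, with a median of 0.06, while most genes of the itaconate and TCA cycle list fell. Beside Nos2, the arginine-recycling enzyme Ass1 (1.34 ± 0.06), the arginine transporter Slc7a2 (1.03 ± 0.26, 0.51 without replicate 3) and Gch1, which makes the cofactor of Nos2 (1.34 ± 0.06), rose. Gchfr, the feedback inhibitor of Gch1, fell (7.09, 6.84 and 6.41 against 7.90 to 8.12, median 8.01, -1.23 ± 0.12), as did the polyamine enzymes Srm (-0.61 ± 0.10) and Odc1 (-0.33 ± 0.07). Acod1, which turns the TCA intermediate aconitate into itaconate, read 13.34, 13.58 and 13.04 against 6.90 to 7.41, median 7.12 (6.19 ± 0.12). Of 24 genes of that list, Acod1 was the 1 that rose and 17 fell, where 34.3% of all genes fell. Among those were the cytosolic isocitrate dehydrogenase gene Idh1 (-1.03 ± 0.16), Idh3a, of the cycle's own isocitrate dehydrogenase (8.12, 7.64 and 7.56 against 8.51 to 8.71, median 8.66, -0.87 ± 0.10), Suclg2 (-0.61 ± 0.07), Pdha1, of pyruvate dehydrogenase (-0.54 ± 0.09), and the succinate dehydrogenase subunit gene Sdhc (-0.46 ± 0.07). The falls were shallow, with a list median of -0.30 (-0.27 without replicate 3).

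Respiratory chain subunits fell in 20 of 54 genes and rose in 1, with a median of -0.16 against -0.08 for all genes. The share that fell (37.0%) was near the 34.3% of all genes, and the share that rose (1.85%) lay under their 21.5%. Without replicate 3, 14 fell. Cox7a2 (-0.67 ± 0.13) and Ndufa4 (-0.45 ± 0.08) fell most and Uqcrq (0.61 ± 0.13) was the 1 that rose. Of 22 genes of glycolysis and the hypoxia response 8 rose (36.4%) and 5 fell (22.7%). The glucose transporter Slc2a6 (2.00 ± 0.07) and hexokinase Hk3 (1.26 ± 0.07) rose at least 2-fold, while Ankrd37 read 6.09, 6.24 and 5.65 against 9.76 to 10.10, median 9.97 (-3.96 ± 0.11), the lowest fold change of all genes. Ndrg1 (-0.78 ± 0.12) also fell, the oxygen sensor gene Egln1 fell to below background (adjusted p = 0.0077), and Hif1a rose (0.44 ± 0.11). Ankrd37, Egln1 and Ndrg1 are known as targets of hypoxia-inducible factors.

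Of 10 genes that make or remove reactive oxygen, 7 rose and 3 fell. Cybb, the catalytic subunit of the phagocyte NADPH oxidase, rose at least 2.69-fold (7.21, 7.26 and 6.89 against 4.59 to 5.03), its partners Ncf1 (1.05 ± 0.08) and Cyba (0.50 ± 0.09) rose, and so did mitochondrial superoxide dismutase, Sod2 (1.25 ± 0.07). Catalase (Cat) fell (-0.54 ± 0.10). In the NRF2 and glutathione list 8 of 24 rose (33.3%) and 4 fell (16.7%), against 21.5% and 34.3% of all genes. Those that rose included Gclm (0.85 ± 0.10) and Sqstm1 (1.03 ± 0.09). Those that fell included the glutathione transferases Mgst3 (-1.52 ± 0.09) and Gstm1 (-0.99 ± 0.09). The metal transporter genes Slc11a2 (2.65 ± 0.15) and Slc31a2 (1.91 ± 0.12), for iron and copper, rose, and Hfe, an iron regulator, fell (-0.94 ± 0.11). The tryptophan-degrading enzyme Ido1 read 6.08, 5.82 and 9.67 against 4.73 to 5.38, median 5.06, a rise of at least 2.82-fold, or 1.19-fold without replicate 3.

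Of 24 fatty acid and lipid genes 15 fell (62.5%, against 34.3% of all genes) and 4 rose, with a median of -0.46. Srebf1, the factor that drives fatty acid synthesis, read 7.41, 7.19 and 6.81 against 8.39 to 8.65, median 8.48 (-1.37 ± 0.11), and its targets Scd2 (-0.81 ± 0.11) and Elovl6 (-0.70 ± 0.10) fell. Plin2, which coats lipid droplets (-1.02 ± 0.15), Fabp5 (-1.05 ± 0.11), Lpl (-0.72 ± 0.08) and the β-oxidation gene Acadm (-0.69 ± 0.07) fell too, whereas the acyl-CoA synthetase gene Acsl5 rose (0.65 ± 0.08). Sterol synthesis genes had 7 lower (41.2%, not far from all genes) and 1 higher of 17, with Sqle (-0.88 ± 0.06) and Cyp51 (-0.84 ± 0.10) at the low end. Apoe, the main lipid carrier made by microglia, read 11.23, 11.48 and 11.12 against 12.72 to 13.16, median 13.10 (-1.76 ± 0.10). Apoc1 fell at least 2.82-fold to below background. Of 17 cholesterol efflux genes and LXR targets 8 fell (47.1%) and 4 rose (23.5%, or 2 genes without replicate 3), the latter including the lysosomal cholesterol carrier Npc2 (0.64 ± 0.08). In the endocannabinoid and eicosanoid list 0 of 10 rose and 5 fell, among them Daglb, which makes 2-arachidonoylglycerol (-1.17 ± 0.08), and Abhd12, which breaks it down (-1.14 ± 0.11). A further probe of Daglb gave -0.35. Ptgs2, the inducible cyclooxygenase, was above background on 0 of 9 arrays.

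Genes of microglial identity and of disease-associated microglia changed in both directions. Of 20 identity genes 9 fell and 3 rose, where 34.3% and 21.5% of all genes did, so falls outnumbered rises over all genes as well. Gas6, the ligand of TAM receptors, read 10.77, 10.89 and 10.18 against 12.08 to 12.32, median 12.26 (-1.63 ± 0.12), and the receptor Trem2 (-0.70 ± 0.09) and its signalling partner Tyrobp (-0.77 ± 0.09) fell. Tgfbr1, a receptor for TGF-β, fell (-0.34 ± 0.08). The members that rose were Aif1 (9.65, 9.41 and 9.97 against 6.80 to 7.08, median 6.99, 2.70 ± 0.11), C1qb and C1qc. Of 23 disease-associated genes 13 fell (56.5%), 6 at least 2-fold, and 4 rose (17.4%). The growth factor gene Igf1 read 10.25, 10.18 and 10.15 against 11.66 to 12.02, median 11.78 (-1.60 ± 0.08), the protease inhibitor Timp2 9.04, 9.07 and 8.50 against 10.88 to 11.04, median 10.94 (-2.07 ± 0.10), and Cd9 (-1.10 ± 0.08) and Ank (-1.53 ± 0.07) fell. Cst7, a cystatin of the same set, rose (2.41 ± 0.08).

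Lineage factors shifted in both directions. Spi1 (-0.63 ± 0.09) and Lyl1 (-1.28 ± 0.16) fell, Cebpa fell to below background (adjusted p = 0.00026), and Ets2 (1.69 ± 0.09), Id3 (1.68 ± 0.21) and Cebpb (0.43 ± 0.06) rose, 7 up and 5 down of 18. Bach1 read 9.04, 8.98 and 9.38 against 6.59 to 8.46, median 8.09 (1.32 ± 0.32), with untreated replicate 6 far below the rest. The mannose receptor Mrc1 read 11.20, 11.25 and 11.04 against 12.72 to 12.99, median 12.87 (-1.69 ± 0.08) and the scavenger receptor Colec12 fell (-1.23 ± 0.17). Clec4e, a receptor for mycobacterial glycolipid, read 12.06, 12.16 and 11.40 against 5.73 to 6.77, median 6.36 (5.56 ± 0.25). The paired receptor genes Pilrb1 (3.07 ± 0.10) and Pilra (2.61 ± 0.17) and the Fc receptor Fcgr4 (1.29 ± 0.21, 0.86 without replicate 3) rose, while Inpp5d, a phosphatase that restrains such receptors (-1.24 ± 0.13), and Btk (-0.82 ± 0.09) fell.

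Genes with the deepest falls had varied roles. Cytip, a regulator of leukocyte adhesion, read 8.32, 7.89 and 9.13 against 11.86 to 12.20, median 12.05 (-3.58 ± 0.18). Selenop, a selenium transport protein, read 7.58, 7.76 and 7.92 against 9.64 to 10.18, median 9.91 (-2.16 ± 0.10), and Igfbp4, which binds insulin-like growth factors, 9.07, 8.93 and 8.33 against 10.76 to 10.96, median 10.93 (-2.13 ± 0.13). Eno3, an enolase (-2.02 ± 0.09), the sulphotransferase genes Chst10 (-2.61 ± 0.07) and Chst3 (-1.98 ± 0.13) and the mTOR inhibitor Deptor (-1.89 ± 0.11) fell. Mmp12, a macrophage elastase, fell at least 2.36-fold and Cmbl, a hydrolase, at least 2.28-fold to below background. Thrombomodulin, Thbd, read 6.22, 5.55 and 5.55 against 7.44 to 7.82, median 7.61 (-1.86 ± 0.14). Cytip, Selenop and Chst3 were higher on replicate 3 than on replicates 1 and 2, but still below all untreated arrays.

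Most DNA replication genes fell, and mitotic genes went both ways. Of 40 genes of DNA replication and the G1/S step 25 fell (62.5%) and 3 rose (7.5%), against 34.3% and 21.5% of all genes. The median was -0.37 (-0.38 without replicate 3). Ccne2, cyclin E2, read 6.51, 6.54 and 6.02 against 8.26 to 8.62, median 8.54 (-2.14 ± 0.12), and Cdc6, which loads the helicase, 6.86, 6.96 and 6.96 against 8.35 to 8.72, median 8.51 (-1.60 ± 0.10). The helicase subunit genes Mcm2 (-0.70 ± 0.07), Mcm3 (-0.85 ± 0.20) and Mcm5 (-0.67 ± 0.07) fell as well. Of 34 mitotic genes 9 rose (26.5%) and 6 fell (17.6%), with a median of 0.06. Cdk1 (-0.40 ± 0.08) and Mybl2 (-0.62 ± 0.09) fell, and Cenpf (0.56 ± 0.13) and Nusap1 (0.40 ± 0.09) rose. The difference between these lists was not tested. Among cell cycle brakes Gadd45a (10.50, 10.66 and 11.29 against 8.20 to 8.84, median 8.62, 2.24 ± 0.16), Gadd45b (2.05 ± 0.22, 1.63 without replicate 3), Btg1 (1.45 ± 0.09) and Ccng2 (1.45 ± 0.09) rose and the cyclin gene Ccnd3 fell (-0.56 ± 0.07).

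Genes of protein synthesis went in different directions. Aminoacyl-tRNA synthetases rose in 12 of 17 cases and fell in 2, against 21.5% and 34.3% of all genes. Cars (7.82, 7.85 and 7.70 against 6.35 to 7.28, median 6.98, 0.91 ± 0.16) and Aars (0.82 ± 0.07) were among them, and Wars, known to be interferon-induced, rose by 1.28 ± 0.12. The stress factors Trib3 (11.49, 11.43 and 12.32 against 8.83 to 9.24, median 8.99, 2.73 ± 0.16) and Ddit3 (2.20 ± 0.12) rose, with asparagine synthetase, Asns (1.00 ± 0.07), and the transcription factor Atf4 (0.46 ± 0.08). Chaperones of the endoplasmic reticulum fell in the same list. Hspa5, the main one, read 6.82, 6.72 and 6.77 against 7.29 to 8.02, median 7.67 (-0.86 ± 0.19), and Sdf2l1 (-0.54 ± 0.11), Dnajc3 (-0.51 ± 0.09) and the factor Xbp1 (-0.51 ± 0.06) fell. That list had 9 lower (40.9%) and 5 higher (22.7%) of 22, not far from all genes. Ribosome biogenesis genes fell in 15 of 29 cases and rose in 4, with Pes1 lowest (6.28, 5.76 and 5.40 against 7.37 to 7.68, median 7.50, -1.69 ± 0.14). Cytosolic ribosomal proteins had 2 of 50 higher and 3 lower (0 and 2 without replicate 3). Mitochondrial ones had 7 of 72 higher (9.72%) and 23 lower (31.9%, near the 34.3% of all genes).

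**Figure D4:**
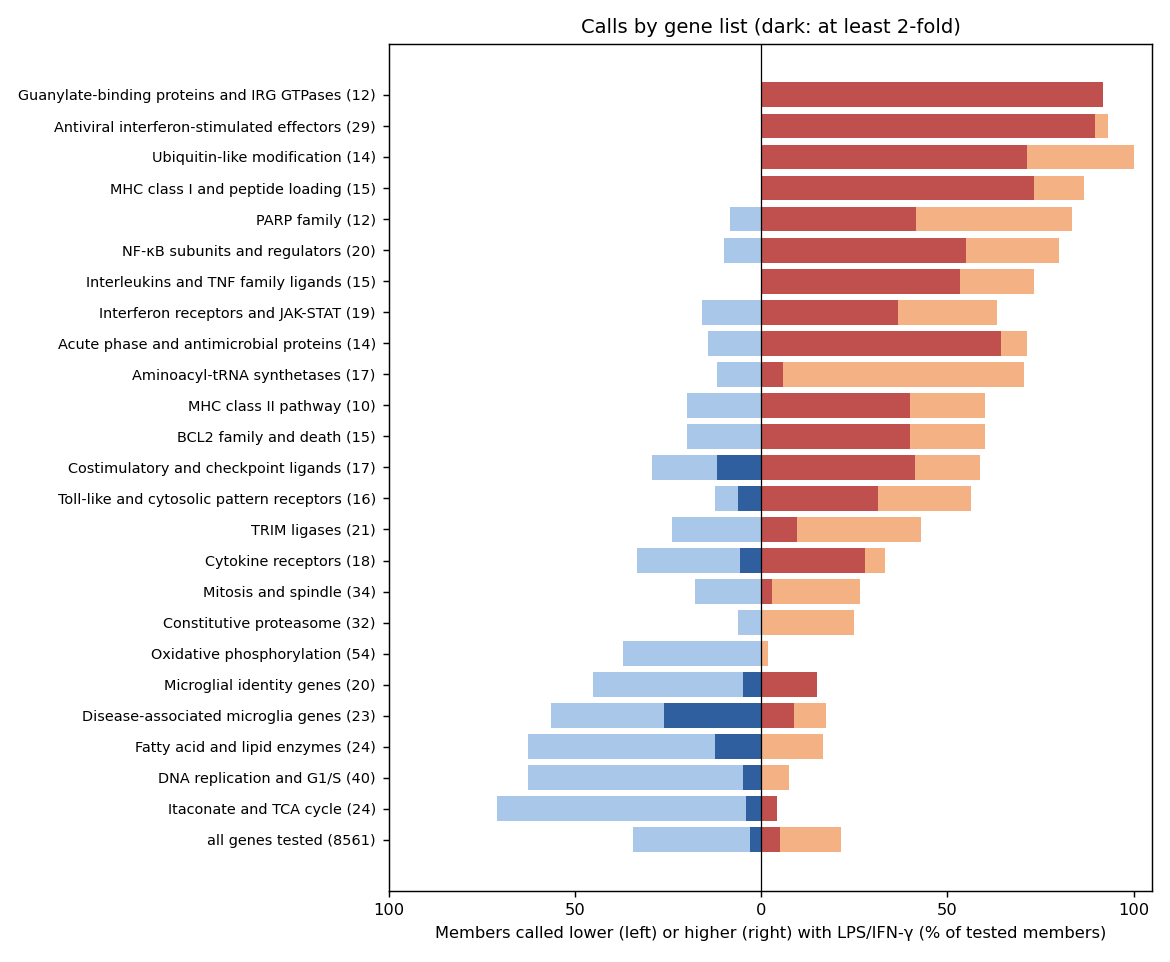
Share of tested members of 24 gene lists that were called higher (right) or lower (left) with LPS/IFN-γ, darker where the change was at least 2-fold; the number of members tested stands beside each name, and the bottom bar gives all 8561 genes (21.5% higher, 34.3% lower). The GTPase, antiviral, ubiquitin-like and MHC class I lists have members called higher and 0 called lower, and the TCA cycle, lipid and DNA replication lists lie mostly to the left.

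Replicate 3 differed from replicates 1 and 2 in a set of genes that included immune genes. This array chose the genes, so they are described without a test. Cxcl9, a chemokine induced by IFN-γ, read 9.35, 9.48 and 14.26 against 4.42 to 5.01, median 4.64, and its rise of at least 40.3-fold was 13.1-fold without replicate 3. Ly6c1, a surface protein, rose at least 4.65-fold, or 2.2-fold without replicate 3, which read 3.24 above the mean of the others. The uridine phosphorylase gene Upp1 read 9.22, 9.50 and 11.58 against 7.17 to 7.59 and the interferon-induced gene Mndal 5.96, 5.59 and 8.10 against 4.43 to 4.62. In each of these the stimulated arrays lay above all untreated arrays, and replicate 3 lay highest. Among genes too dim to be tested, the chemokine gene Ccl8 read 5.32, 5.49 and 7.33 against 4.35 to 4.58 and the feedback inhibitor Socs1 5.37, 5.60 and 6.87 against 4.63 to 4.98, with replicate 3 again highest.

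Other genes were lower on replicate 3. The inflammasome sensor Nlrp3 read 6.37, 6.55 and 5.43 against 4.53 to 4.99 and the formyl peptide receptor Fpr2 7.03, 6.73 and 4.83 against 4.49 to 4.69. The interferon-induced gene Rtp4 read 6.24, 6.23 and 5.41 against 4.44 to 4.71. All 3 were above background on replicates 1 and 2 alone. Phgdh, the first enzyme of serine synthesis, read 10.66, 10.90 and 9.64 against 9.59 to 10.09, median 9.88, within the untreated range on replicate 3 and above it on the others. Fam20c, a secretory pathway kinase, read 9.88, 9.96 and 8.68 against 7.74 to 8.21. The signalling receptor gene Nfam1 read 6.59, 6.75 and 5.26 against 7.63 to 8.43, and the splicing factor gene Srsf3 6.62, 6.10 and 5.30 against 7.22 to 7.55. For some genes the array decided the direction. Gm11992 read 6.64, 6.28 and 9.33 against 7.48 to 7.76, below untreated on replicates 1 and 2 and above on replicate 3, and Tmtc2, a membrane protein gene, read 7.27, 6.91 and 8.92 against 8.18 to 8.46.

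The 99 genes higher on replicate 3 had a median log2 fold change of 1.10 with it and 0.60 without it. Of these, 68 were called higher and 5 lower, and without it 56 and 17. The 46 lower ones had a median of -0.62, or -0.26 without it. Replicate 3 lay on chip 3 with 2 untreated arrays. Over the same 99 genes the untreated arrays of chip 3 differed from those of the other chips by a median of -0.02, and over the 46 by 0.01. For the arrays of the other treatments in the series, given IL4 or TGFb, the same medians were -0.04 and 0.01 over the 99 genes and -0.11 and 0.06 over the 46. The markers of neural progenitors, fibroblasts, dendritic cells, neutrophils, B cells, mast cells and T or NK cells were below background on replicate 3. Klf4, Slc1a2, Aldh1l1, Cnp and Vwf were above it, and Pou5f1 and Syp were not. On replicates 1, 2 and 3 the summed log2 level was 8.04, 8.10 and 8.33 for the endothelial list and 8.22, 8.08 and 8.46 for the oligodendrocyte list. The part of such cells or of the chip in the departure was not tested. Replicate 3 had 13761 probes above background, between the 13601 and 14695 of replicates 1 and 2.

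**Figure D5:**
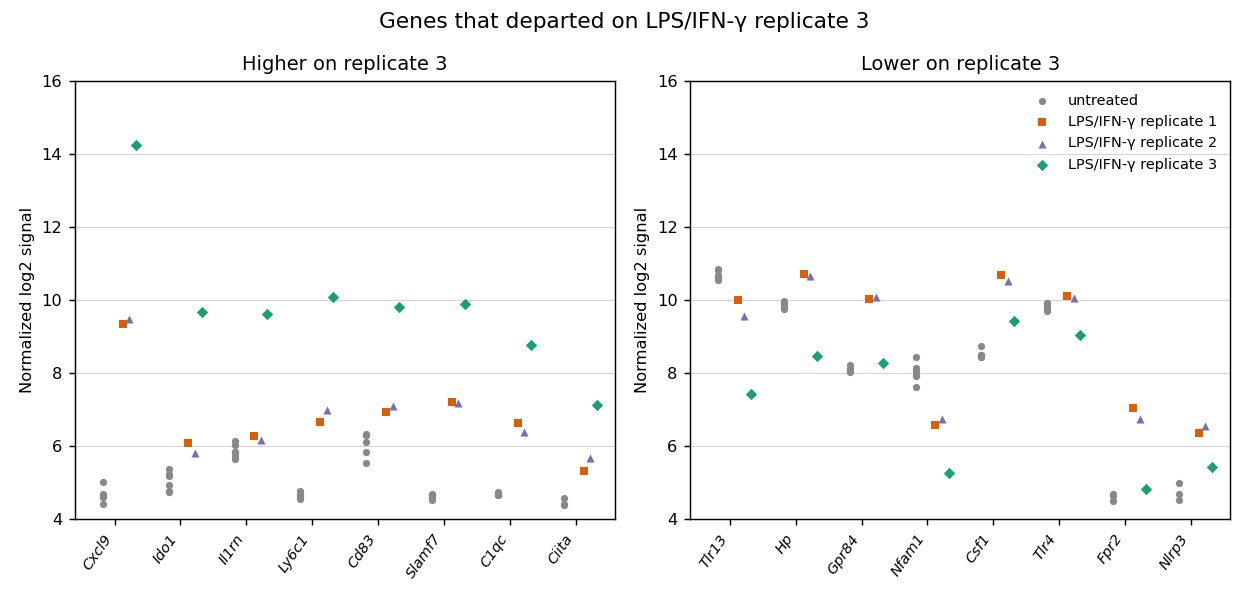
Normalized log2 signal of 16 genes that departed on LPS/IFN-γ replicate 3, 8 upwards and 8 downwards, on untreated arrays (grey circles; for Ciita, Fpr2 and Nlrp3 the lowest, median and highest of the 6) and LPS/IFN-γ replicates 1, 2 and 3 (coloured symbols). Replicates 1 and 2 lie close to each other in each gene, and replicate 3 lies at least 1 log2 unit from their mean.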

How the data were processed

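Total RNA of embryonic stem cell-derived microglia was hybridised to 15 Illumina mouse bead arrays on 3 chips. Per the file headers, the deposited table gives for each of 45281 probes an average bead signal intensity, not normalized, and a detection p-value. The other deposited table is on the log2 scale, made by the authors with Partek, per the submitters' processing notes, in steps not given in the sources used here. On comparison with the scanner values, 99.995% of the authors' log2 values lay within 0.001 of quantile-normalized signals with the chip effect removed.

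Intensities were background-corrected and quantile-normalized with neqc (limma 3.58.1, R 4.3.3, offset 16). The filter kept the 15434 probes detected (p under 0.01) on 3 or more of the 15 arrays, of which 13310 had 1 gene symbol from the platform annotation, updated through RefSeq where it matched. The probe with the highest mean stood for each of 8561 genes; 3293 genes had several. One model with 4 groups was fitted to all 15 arrays with lmFit and eBayes, with Benjamini-Hochberg adjustment over all genes and a threshold of 0.05. On simulated data with 200 changed genes among 8561, 95 of 100 changes of 2-fold and 81 of 100 of 1.5-fold were recovered, and 9.28% of calls were false. The number of arrays limits the precision.

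Same-numbered arrays were not treated as pairs. The correlations of their deviations were 0.182, 0.178 and 0.0347, against -0.289 to 0.17 for arrays of different number. The first 2 were the highest, and each joined arrays of the same chip. Arrays of the same chip but different number gave -0.0746 and -0.0214 on chip 2 and -0.051 and -0.0298 on chip 3. A pairing and a shared chip were not tested against each other. Chips 1, 2 and 3 each held both groups, and with chip as a block 4838 genes were called. Of the calls made without the block, 97.3% had the same direction within all 3 chips. Those calls came from the same arrays, so this share was in part set by the selection and is no separate check. Genes are named by rule: the 25 highest and 25 lowest calls that did not overlap and held without replicate 3, up to 6 members at either end of each of 59 gene lists, the markers, and the 20 largest departures of replicate 3 in each direction. Outside this rule, Acadm, Apobec3, Bst2, Cd14, Cebpb, Csnk2a1, Deptor, Eif2ak2, Elovl6, Fam20c, H2-K1, Ifitm3, Ifngr2, Il18, Krit1, Lpl, Ly96, Mcm2, Mcm5, Nfkb2, Phgdh, Rela, Sdhc, Slfn2, Srsf3, Stat3, Thbd, Tlr4 and Xbp1, and the genes named as below background or too dim for the test, were chosen after their values were seen. The comparison, the lists and the genes were chosen with earlier results of these data known. Alternatives to the background correction, scaling, filter, probe choice, blocks, weights and arrays were run.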

Additional observations from a re-analysis of the deposited data

Results flagged for a closer look

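Each of the 275 genes whose changes the text gives was examined for an untreated array far from the other 5, by Dixon's test. It marked 19 genes (6.91%), where chance marks about 1 in 20, and 11 of them on untreated replicate 1, the untreated array on chip 1. The group of 3 stimulated arrays was not tested in this way.

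Untreated replicate 1 was lowest for Apoe (12.72 against 13.10), Fabp5 (8.61 against 8.92), Gas6 (12.08 against 12.27), Inpp5d (9.90 against 10.06), Plin2 (10.85 against 11.25), Trim27 (9.68 against 9.96) and Tyrobp (12.10 against 12.42), where the second value is the median of the other 5 arrays. It was highest for Bbc3 (9.34 against 9.05), Csf1 (8.73 against 8.48), Il1a (4.71 against 4.53) and Tapbpl (6.25 against 5.95). The others were Gch1 on untreated replicate 2 (10.87 against 10.71), Ccl5 on untreated replicate 3 (5.82 against 6.08), Ccng2 on untreated replicate 3 (8.10 against 7.80), Chst10 on untreated replicate 3 (9.14 against 8.99), Tnfaip3 on untreated replicate 3 (7.72 against 8.08), Mndal on untreated replicate 4 (4.62 against 4.45), Igfbp4 on untreated replicate 6 (10.76 against 10.94) and Nos2 on untreated replicate 6 (5.73 against 4.84).

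In all 19 genes the gap was smaller than the difference from the stimulated arrays, and the call held without the untreated array concerned.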

How the results depend on the processing

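The number of genes called ranged from 3501 with scaling by the array median alone to 5262 in the authors' log2 table, and from 4125 to 4689 when each array was left out in turn, against 4770. Rises ranged from 1584 to 1829 and falls from 2541 to 2860 without 1 array, and calls of at least 2-fold from 610 to 774. Median scaling called 1156 genes higher, and 2516 in all without LPS/IFN-γ replicate 3. It shifted the median of all genes to -0.15, against -0.00 with cyclic loess. Without background correction and in the authors' table, 370 genes were called at 2-fold or more, against 698. The genes at least 2-fold off on replicate 3, 145 in the analysis reported, numbered 55 without background correction, 72 with normexp and no negative controls, 263 with median scaling and 30 in the authors' table, settings chosen for this count after seeing the data. The cause was not tested.

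With the replicate block 4037 genes were called, and the named genes that lost their call under it were Hif1a, Il1rn, Il6st and Lyz2. Whether same-numbered arrays are pairs was not settled. Of 6320 values of the 275 named genes under alternatives, 6266 kept their direction and their side of the threshold, 24 lost a call, 29 gained one and 1 reversed, which was Tlr4 without LPS/IFN-γ replicate 3 (0.27, with -0.27 the lowest value when other arrays were left out). Pf4, at the threshold, lost its call most often. The median of the immediate-early list, negative in the analysis reported, was 0.33 under the filter on all arrays of a group and 0.08 without LPS/IFN-γ replicate 1 (-0.23 to 0.08 when each array was left out). List medians that rest on large rises were smaller without background correction, at 4.76 for T cell chemokines (6.97 in the analysis reported), 3.35 for interferon-induced GTPases (5.09) and 1.42 for antiviral effectors (2.51). The share of promoters with an ISRE match among genes at least 4-fold higher, 26.8%, ranged from 25.2% to 28.1%. Signal over background limits the dim genes, since 100 genes were below background on all untreated arrays and 267 on all stimulated ones.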
